A study of Mus musculus with 14 samples.

Results

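The mitochondrial protein import machinery and the chaperones that fold imported proteins in the matrix were followed in cultured adult mouse neural stem and progenitor cells. Members were protein-coding genes of the deposited annotation whose symbol was a Timm or Tomm name with a number, together with 17 named genes (Hspd1, Hspe1, Hspa9, Trap1, Pam16, Dnajc15, Dnajc19, Grpel1, Grpel2, Pmpca, Pmpcb, Mipep, Samm50, Mtx1, Mtx2, Chchd4 and Gfer). The rule used names, not measured values, and found 42 of 53700 annotated genes. Of these, 40 passed the filter on low counts in both comparisons. Tomm20l, a paralog of the receptor gene Tomm20, and Timm8a2, a paralog of Timm8a1, had no count in any of the 14 libraries.

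Poly-A RNA was sequenced from 4 groups of C57BL/6 cells. Quiescent cells had received BMP4 (n = 4 libraries) and proliferating cells FGF with EGF (n = 4). In the other experiment cells stayed in FGF with EGF and received an adeno-associated virus for GFP (control, n = 3) or for Cre-GFP, which served to delete Yme1l (KO, n = 3). The labels of the KO libraries name a wild-type mouse and no floxed allele, and no label says whether replicates were separate animals or cultures, so p-values reflect only how far these libraries scatter, and that scatter may be technical. In bulk RNA, fewer cells with a transcript and less of it per cell cannot be told apart.

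Nearly all mitochondrial proteins are made in the cytosol and enter through the TOM complex of the outer membrane. From there, the SAM complex inserts beta-barrel proteins, the MIA disulfide relay and the small TIM chaperones handle proteins of the intermembrane space, TIM22 inserts carriers into the inner membrane, and TIM23 with its ATP-driven motor threads proteins with a presequence into the matrix. There the presequence is cut off and Hsp60 with Hsp10 folds the protein. YME1L, the protease whose gene the KO targeted, sits in the inner membrane and is known to degrade several import components, among them TIMM17A.

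Levels are counts relative to the scaled library total (CPM), set within each experiment, as mean ± SD, and a gene was called at an adjusted p under 0.05. Library totals were 6475099 to 8797750 counts in quiescent, 8331999 to 8992709 in proliferating, 9226080 to 10320736 in control and 9053124 to 9490756 in KO cells. Yme1l1 fell from 127 ± 7.49 CPM in the control to 24.7 ± 1.61 CPM in the KO, and the 3 KO libraries lay below the 3 controls. All 10 neural stem and progenitor markers reached a mean of 1 TPM (a length-normalised unit of transcript abundance) in every group. Their sum was 6281 to 7564 TPM in quiescent, 5829 to 5990 TPM in proliferating, 5438 to 5642 TPM in control and 3818 to 4235 TPM in KO libraries, with Gfap at 210.6 TPM in quiescent and 30.05 TPM in proliferating cells and Fabp7 at 1242 TPM in KO and 2294 TPM in control cells. By contrast, the 6 microglial markers summed to at most 6.08 TPM and the 4 endothelial ones to at most 1.73 TPM in any library, with Cldn5 and Cdh5 under 0.1 TPM in each group mean. The oligodendrocyte lineage markers summed to 289.8 to 318 TPM in quiescent, 645 to 681 TPM in proliferating, 589 to 631 TPM in control and 689 to 730.0 TPM in KO libraries, with 1 to 3 of 6 at a mean of 1 TPM or more. Mature astrocyte markers summed to 722 to 816 TPM in quiescent and 918 to 956 TPM in proliferating libraries. Aldh1l1 (595 and 907.9 TPM) made up most of these sums. The rest of the list was higher in quiescent cells: S100b (177.5 against 30.2 TPM), Aqp4 (3.32 against 0.362 TPM) and Gjb6 (0.363 against 0.0821 TPM). In control and KO libraries the mature astrocyte markers summed to 118 to 126 and 173 to 184 TPM. Neuronal markers summed to 23.1 to 48.3 TPM in quiescent and 29.7 to 38.4 TPM in proliferating libraries. With Map2 at 525 and 527 TPM, they summed to 520 to 576 TPM in control and 534 to 561 TPM in KO libraries. The 3 ependymal markers summed to 10.9 to 78.7 TPM. The part of these marker lists in the results below was not tested. Quiescent replicate 2 stood apart from the other quiescent libraries along transcript GC content, and results that rest on it are given with and without it. KO replicate 3 differed from the other KO libraries by 6.61 and 7.12 times sampling noise (chi-square over its degrees of freedom across genes), against 1.93 between those and 1.73 to 2.48 between control libraries, and calls that change without it are given too.

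Promoter windows are shown for the members whose transcripts moved most in both comparisons, the 4 that were among the 6 largest called changes of each, so that the letters can be read beside the values. Each runs from 250 bases before to 50 after the RefSeq start, 5′ to 3′ on the gene's strand (GRCm38.p6). Capitals mark matches to GCGC, any 2 bases, GCGC (NRF1), CCGGAAG (ETS factors such as GABPA), CACGTG (the E-box of Myc and Max), AAGATGGC (YY1) or GAANNTTC (heat shock element), on either strand, where N is any base.
Hspe1 (chr1:55087898-55088197, + strand): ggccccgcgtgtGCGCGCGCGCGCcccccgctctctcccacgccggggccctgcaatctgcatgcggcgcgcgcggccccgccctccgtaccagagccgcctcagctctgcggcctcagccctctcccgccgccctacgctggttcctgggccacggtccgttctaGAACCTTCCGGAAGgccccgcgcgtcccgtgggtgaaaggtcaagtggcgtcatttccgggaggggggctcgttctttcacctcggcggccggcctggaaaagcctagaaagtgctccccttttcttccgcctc
Timm50 (chr7:28311997-28312296, - strand): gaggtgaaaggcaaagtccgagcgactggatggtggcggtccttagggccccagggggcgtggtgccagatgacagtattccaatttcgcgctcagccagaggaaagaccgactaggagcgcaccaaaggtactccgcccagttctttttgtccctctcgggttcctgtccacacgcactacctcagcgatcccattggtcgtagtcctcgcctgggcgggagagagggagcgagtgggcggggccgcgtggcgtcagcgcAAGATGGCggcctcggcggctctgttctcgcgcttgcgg
Timm10 (chr2:84826771-84827070, + strand): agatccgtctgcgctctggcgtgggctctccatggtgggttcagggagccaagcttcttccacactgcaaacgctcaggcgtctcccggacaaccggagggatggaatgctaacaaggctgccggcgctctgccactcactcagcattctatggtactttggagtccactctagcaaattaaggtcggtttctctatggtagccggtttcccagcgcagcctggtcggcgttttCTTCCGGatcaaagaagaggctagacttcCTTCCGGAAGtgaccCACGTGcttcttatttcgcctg
Timm8a1 (chrX:134541621-134541920, - strand): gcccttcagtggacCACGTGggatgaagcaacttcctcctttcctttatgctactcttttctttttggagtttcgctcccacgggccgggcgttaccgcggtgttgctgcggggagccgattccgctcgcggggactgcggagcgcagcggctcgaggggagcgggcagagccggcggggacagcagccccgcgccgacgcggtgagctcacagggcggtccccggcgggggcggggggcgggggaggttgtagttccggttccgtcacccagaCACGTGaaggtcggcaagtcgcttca
In Hspe1 the ETS match overlapped the heat shock element match, and the capitals at the 5′ end were 2 overlapping NRF1 matches. Timm50 held only a YY1 match, 11 bases after the start, Timm10 held ETS matches and an E-box, and Timm8a1 held 2 E-boxes. Over the 37 members with a RefSeq window, the ETS letters occurred in 15 (40.5%, against 9.12% of all 27025 gene windows), the NRF1 letters in 6 (16.2% against 6.43%) and the E-box in 6 (16.2% against 7.24%). The YY1 letters occurred in 2 (5.41% against 2.88%), those of the heat shock element in 2 (5.41% against 7.95%), TCAAGGTCA of estrogen-related receptors in 1 (2.7% against 0.407%) and TGATGNAA of ATF4 with CHOP in 0 (against 4.06%). The 27025 windows were not limited to expressed protein-coding genes, as nearly all members are, so these shares come from unlike sets. Matching letters describe the windows and do not show binding.

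Quiescent cells held less mRNA of most import genes than proliferating cells. Of the 40 members tested, 30 fell and 0 rose, where 35.5% of all 12245 genes fell and 29.9% rose (65.4% either way). At an unadjusted p under 0.05 edgeR also had 0 members higher, and so did DESeq2 and limma at their adjusted p. Timm8b passed as higher with RLE scaling, and Timm8b and Timm17b did with each library's GC trend removed. The median log2 fold change was -0.37 against -0.01 for all genes, and 37 members lay below 0, as did 6206 of all 12245 genes. In 26 members every quiescent library lay below every proliferating one (33.2% of all genes), and in 0 members above. Summed over members, levels were 3506 to 3607 TPM in quiescent and 4593 to 4801 TPM in proliferating libraries. Without quiescent replicate 2, 26 fell and 2 rose (Timm8b and Timm22).

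Import genes also fell in the KO. Of 40 members, 22 fell and 0 rose, where 26.2% of all 12625 genes fell and 25.4% rose (51.6% either way). Here too 0 members were higher at an unadjusted p under 0.05 in edgeR or at an adjusted p in DESeq2 and limma. The median log2 fold change was -0.20 against 0.00, and 36 members lay below 0, as did 6282 of all 12625 genes. KO libraries all lay below the controls in 24 members (30.8% of all genes) and above in 1, Timm29 (30.5% of all genes). The summed level was 3555, 3717 and 3367 TPM in the KO libraries, replicate 3 lowest, and 4386 to 4547 TPM in control libraries. Without KO replicate 3, 25 fell, Mtx1, Timm21 and Grpel2 being the added ones.

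**Figure D1:**
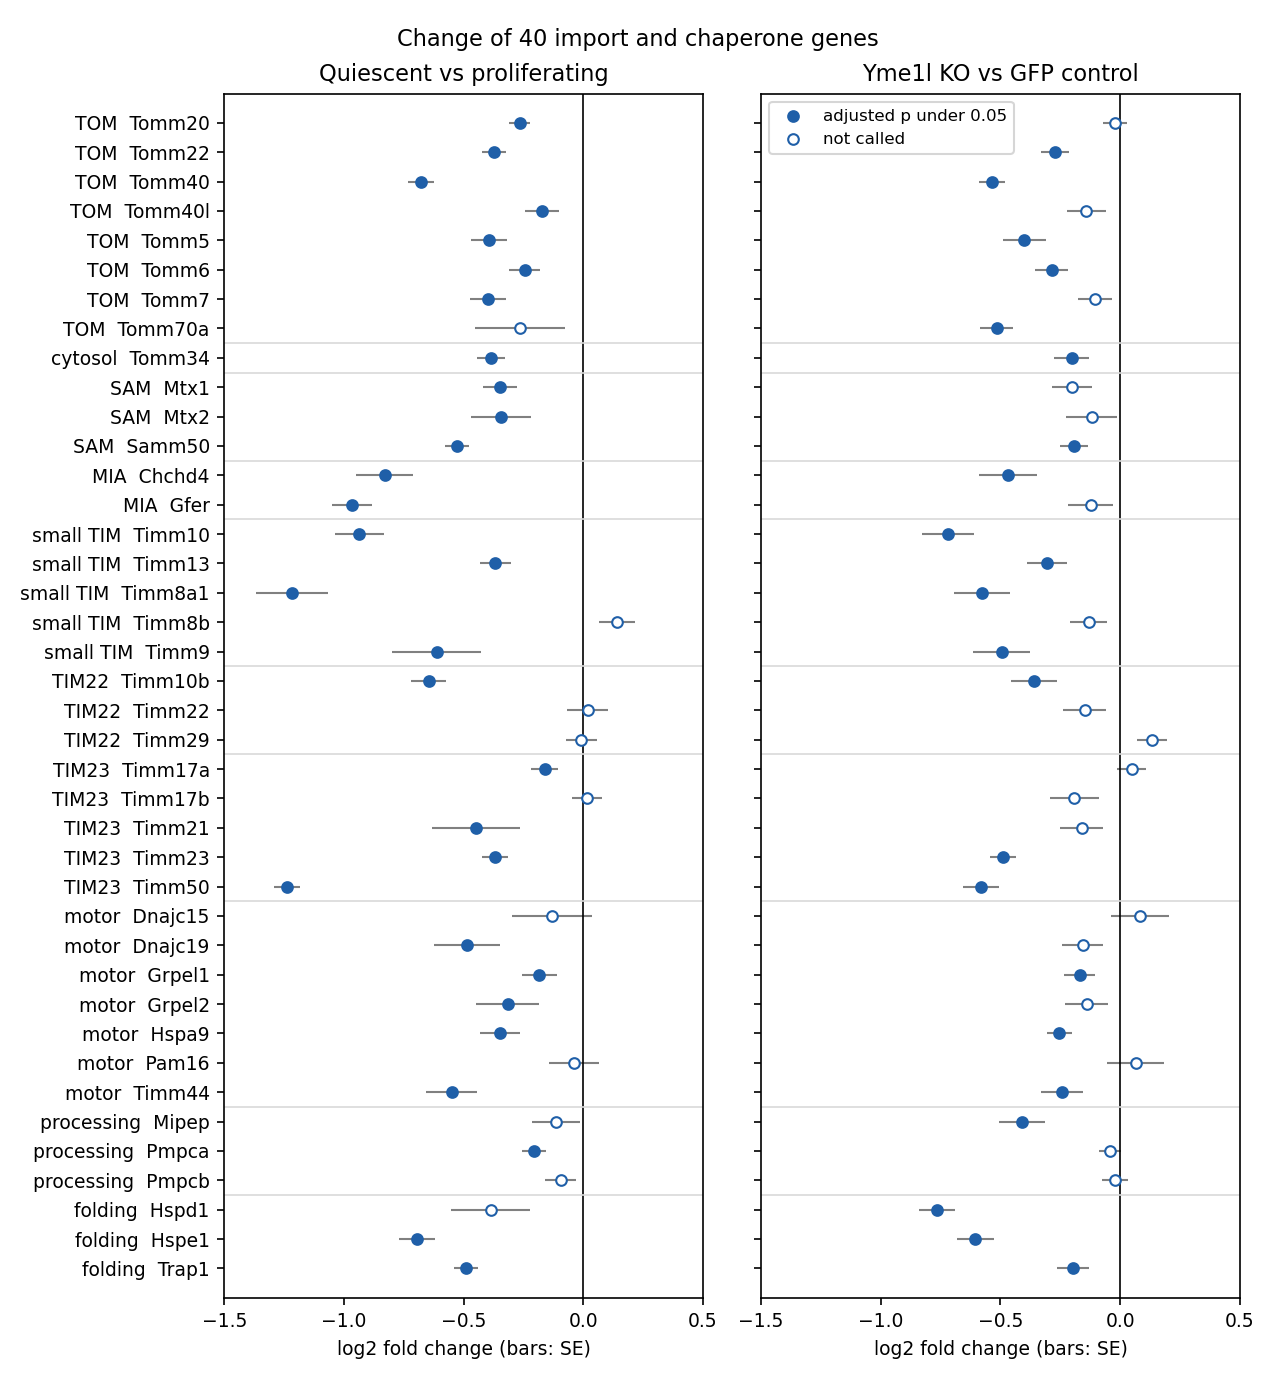
Log2 fold changes (x axis, bars SE) of the 40 tested members, grouped by complex, in quiescent against proliferating cells (left, n = 4 and 4) and Yme1l KO against GFP control (right, n = 3 and 3); filled points passed an adjusted p of 0.05. Filled points lie left of 0 in both panels, 30 on the left and 22 on the right.

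In the TOM complex 7 of 8 tested genes fell in quiescent cells and 5 of 8 in the KO, with the pore gene first. Counts by complex, here and below, stand beside 35.5% of all genes lower in quiescent cells and 26.2% in the KO. Tomm40 (ENSMUSG00000002984, chromosome 7, 19435238 to 19449363 in GRCm39), which encodes the TOM channel, stood at 115, 105, 104 and 109 CPM in the quiescent and at 159, 179, 177 and 178 CPM in the proliferating libraries. It stood at 67.1, 70.7 and 67.0 CPM in the KO and at 97.0, 98.3 and 101.5 CPM in the control. Neither pair of groups overlapped, and Tomm40 fell in both (log2 fold change -0.68, SE 0.05, adjusted p = 1.53e-08, and -0.54, SE 0.06, adjusted p = 4.24e-06). Its paralog Tomm40l stood at 66.6, 55.7, 57.8 and 61.4 CPM in quiescent against 69.3, 69.3, 71.8 and 61.1 CPM in proliferating libraries, which overlapped. Its fall (-0.17, SE 0.07, adjusted p = 0.0455) was lost without any 1 of 7 libraries, all but proliferating replicate 5 (-0.05 to -0.17, adjusted p = 0.0795 to 0.574), and without the GC trend (-0.03). In the KO it stood at 30.6 to 34.8 against 34.5 to 37.8 CPM and was not called (-0.14, SE 0.08, adjusted p = 0.159).

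The receptor genes were not all called in the same comparisons. Tomm20 fell in quiescent cells (149 to 154 against 178 to 186 CPM, -0.27, SE 0.04, adjusted p = 4.79e-05) but not in the KO (196 to 211 against 199.7 to 212 CPM, -0.02, SE 0.05, adjusted p = 0.756). The fold changes differed by 0.20 (SE 0.07, adjusted p = 0.0324), a call lost with RLE scaling (0.09, adjusted p = 0.279), with DESeq2 (0.09, adjusted p = 0.318), without a filter on low counts and without any 1 of 6 libraries (quiescent replicate 3, proliferating replicates 1 and 5, KO replicate 3 and control replicates 1 and 2, adjusted p = 0.0547 to 0.0757). Tomm22, the central receptor, fell in both (-0.37 and -0.27). Tomm70a, which receives carrier proteins from Hsp70 and Hsp90, fell in the KO from 204 to 212 CPM to 128 to 160 CPM (range without overlap, -0.52, SE 0.07, adjusted p = 4.22e-05). In quiescent cells Tomm70a was not called (-0.26, SE 0.19, adjusted p = 0.235), with 26.5 CPM in replicate 2 and 13.6 to 15.8 CPM in the others. Without replicate 2 it fell by 0.46 (adjusted p = 0.00141), and with each library's GC trend removed by 0.69 (adjusted p = 0.00337).

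The small TOM subunits Tomm5 (-0.39 and -0.40) and Tomm6 (-0.25 and -0.29) fell in both comparisons. The Tomm6 fall in quiescent cells was lost without quiescent replicate 3 (-0.14, adjusted p = 0.108) and with GC trends removed (-0.09, adjusted p = 0.223), and its counts may share reads with Gm21981, a gene on the same strand. Tomm7, which regulates the assembly of the complex in yeast, fell in quiescent cells (-0.40) and was at -0.11 (adjusted p = 0.227) in the KO. Tomm34, a cytosolic co-chaperone, fell in both (-0.39 and -0.20); its KO call was lost without KO replicate 2 (-0.17), control replicate 1 (-0.22) or control replicate 2 (-0.16, adjusted p = 0.0603 to 0.132 over these).

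Of the SAM complex, all 3 genes fell in quiescent cells. Samm50, the channel, fell from 123 to 132 CPM to 84.2 to 92.0 CPM (-0.53, SE 0.05, adjusted p = 1.57e-07) and in the KO by 0.19 (SE 0.06, adjusted p = 0.0111; without control replicate 1 -0.17, adjusted p = 0.0588). The metaxin Mtx1 stood at 46.4, 41.8, 43.6 and 47.6 CPM in quiescent against 55.2, 62.9, 56.5 and 53.6 CPM in proliferating libraries (-0.35, SE 0.07, adjusted p = 0.000468). Mtx2, its partner, stood at 12.8, 14.6, 16.8 and 14.1 against 15.1, 20.3, 19.3 and 19.3 CPM (-0.35, SE 0.13, adjusted p = 0.0247). Mtx1 did not overlap between these groups and Mtx2 did. The Mtx2 fall was lost without any 1 of 6 libraries (quiescent replicates 1, 2 and 4 and proliferating replicates 2, 4 and 5, adjusted p = 0.0602 to 0.13), and the pseudogene Gm14425 lies on its strand. In the KO Mtx1 was at 26.5, 26.03 and 27.4 against 32.6, 28.4 and 30.8 CPM (-0.20, SE 0.08, adjusted p = 0.0565), and it passed without KO replicate 3 (-0.22) or control replicate 2 (-0.26). Mtx2 was at 23.1, 19.1 and 18.6 against 20.7, 23.9 and 21.5 CPM, overlapping the control (-0.12, SE 0.11, adjusted p = 0.375).

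Both genes of the disulfide relay fell in quiescent cells. Gfer (ENSMUSG00000040888, chromosome 17, 24912161 to 24915130), which encodes the oxidase that recharges the relay, stood at 24.7, 20.7, 20.8 and 24.3 CPM in quiescent and at 43.0, 42.7, 47.3 and 43.7 CPM in proliferating libraries. The groups lay far apart, and Gfer fell by 48.9% (-0.97, SE 0.08, adjusted p = 4.61e-08). In the KO Gfer overlapped its control, with 22.3, 26.4 and 24.0 against 24.8, 28.2 and 26.1 CPM (-0.12, SE 0.09, adjusted p = 0.289). The difference between the fold changes was 0.80 (SE 0.14, adjusted p = 9.49e-05) and passed under each of the 22 alternatives run for it (0.65 to 0.95). The counts behind it were assigned to different transcripts. A nonsense-mediated decay transcript (1177 bases) held 92.9 ± 6.73% of the Gfer counts in quiescent and 91.6 ± 2.43% in proliferating cells, but 0% in the KO and 7.54 ± 13.1% in its control. There a protein-coding transcript (1776 bases) held 64.0 ± 19.5% in the KO and 69.9 ± 4.59% in the control. The part of this assignment in the difference was not tested. Chchd4 (the relay receptor Mia40) stood at 14.7, 15.5, 15.1 and 11.7 CPM in quiescent against 25.7, 25.9, 21.4 and 28.6 CPM in proliferating libraries (-0.83, SE 0.12, adjusted p = 1.7e-05). These did not overlap, and in the KO Chchd4 fell as well, to 15.4 to 17.9 CPM from 18.8 to 25.0 CPM (-0.47, SE 0.12, adjusted p = 0.00448).

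Among the small TIM chaperones, which form hexamers that escort carriers and other membrane proteins, 4 of 5 tested fell in each comparison. Timm10 (ENSMUSG00000027076, chromosome 2, 84657341 to 84660557) stood at 17.6, 13.2, 17.4 and 15.4 CPM in quiescent and 31.1, 29.4, 31.6 and 28.8 CPM in proliferating libraries, and at 11.4, 13.98 and 13.01 CPM in KO and 20.6, 22.0 and 20.6 CPM in control libraries. Both separations were complete, and on the log2 scale Timm10 fell by 0.94 (SE 0.10, adjusted p = 9.26e-07) and fell by 0.72 (SE 0.11, adjusted p = 8.72e-05). Timm9, its partner in the hexamer, stood at 7.44, 9.11, 7.81 and 5.02 CPM in quiescent and 13.3, 11.9, 10.6 and 9.18 CPM in proliferating libraries. It stood at 20.8, 17.96 and 14.7 CPM in KO and 25.8, 22.8 and 26.8 CPM in control libraries. Timm9 fell by 0.61 (SE 0.19, adjusted p = 0.00901; without quiescent replicate 4 by 0.41, adjusted p = 0.0509) and by 0.49 (SE 0.12, adjusted p = 0.00299), and neither pair of groups overlapped. Timm13 fell in both (-0.37 and -0.31).

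Of Timm8a1 and Timm8b, alternative partners of Timm13, the former fell in both comparisons and the latter passed in neither. Timm8a1 (ENSMUSG00000048007, chromosome X, 133438005 to 133442614), whose human ortholog is mutated in deafness-dystonia syndrome, stood at 6.14, 8.99, 10.25 and 7.95 CPM in quiescent and 18.9, 18.6, 17.6 and 22.8 CPM in proliferating libraries. In the KO it was at 23.9, 29.6 and 21.7 CPM against 42.6, 33.8 and 36.1 CPM. It fell without overlap in both, by 1.22 (SE 0.15, adjusted p = 3.11e-06) and by 0.58 (SE 0.12, adjusted p = 0.00111). Timm8b was at 48.8, 51.7, 48.7 and 52.9 CPM in quiescent and 42.6, 50.6, 48.6 and 41.9 CPM in proliferating libraries, and at 32.0, 37.0 and 34.7 CPM in KO and 37.8, 37.0 and 38.8 CPM in control libraries. Both pairs of groups overlapped, and Timm8b was not called in quiescent cells (0.14, SE 0.07, adjusted p = 0.114) or in the KO (-0.13, SE 0.08, adjusted p = 0.176). Its quiescent value passed as a rise without quiescent replicate 1, 2 or 3 (each 0.21, adjusted p = 0.0227 to 0.0473). With all libraries kept it passed with RLE scaling (0.19, adjusted p = 0.0433) and with GC trends removed (0.21, adjusted p = 0.0217).

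**Figure D2:**
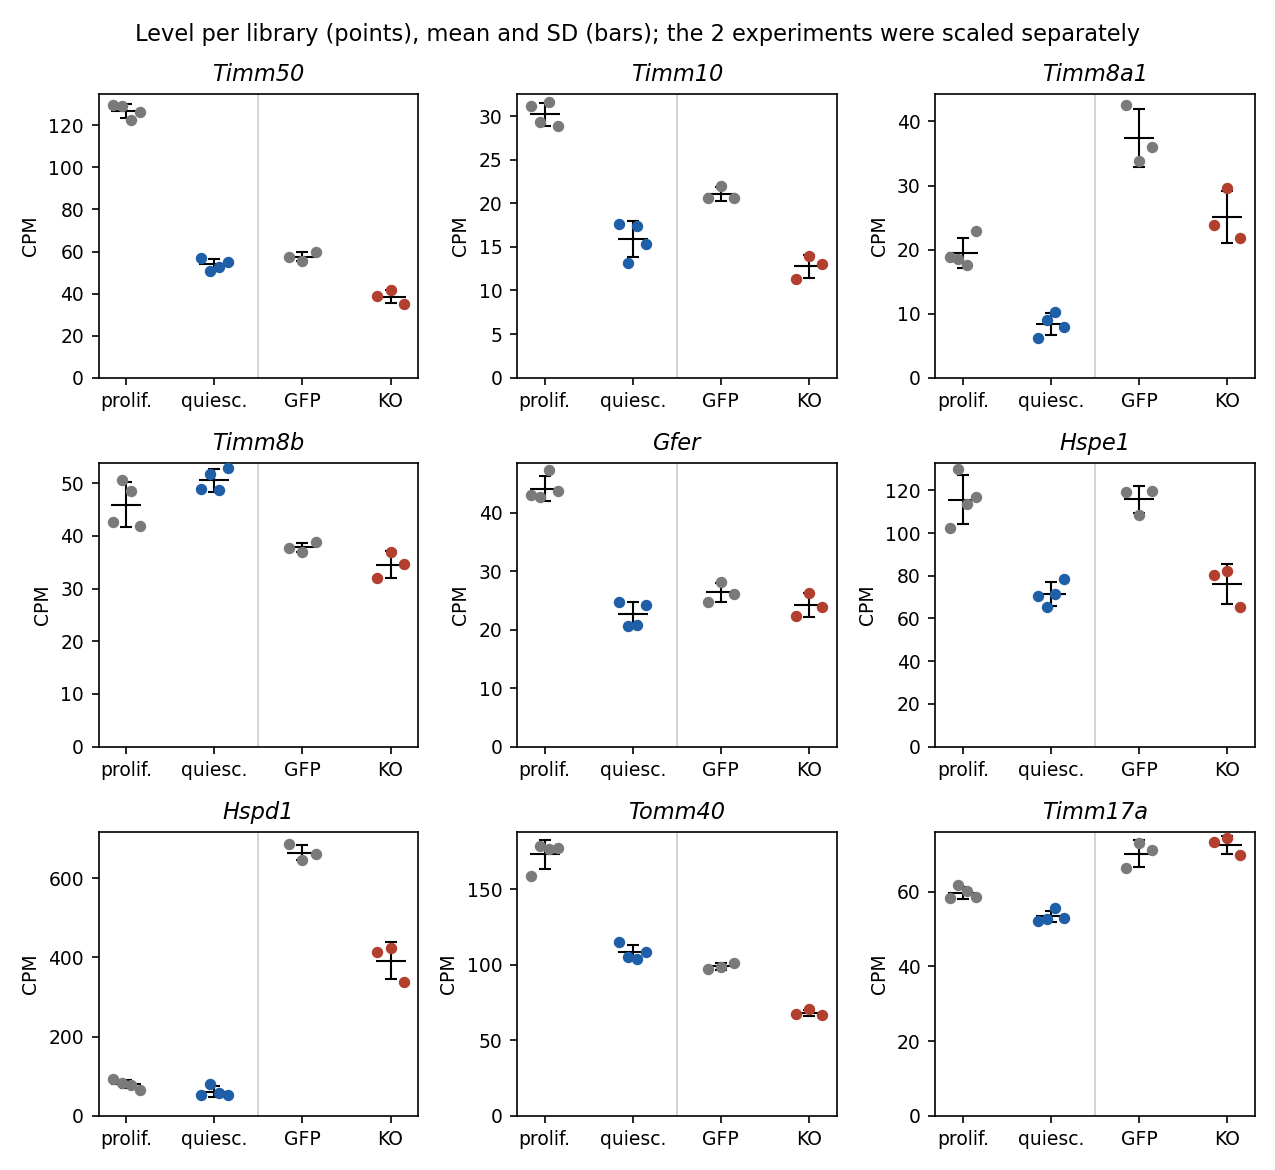
CPM (y axis, from 0) of 9 members in each library (points) of the proliferating, quiescent, GFP control and KO groups, with mean and SD as bars; the 2 experiments were scaled separately. Timm50, Timm10, Timm8a1, Hspe1 and Tomm40 are lower in quiescent and in KO libraries than in every library of their reference group, Gfer in quiescent cells, and Timm8b overlaps in both.

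Of the 3 genes of the TIM22 complex, 1 fell in each comparison. That share (33.3%) was near those over all genes, 35.5% in quiescent cells and 26.2% in the KO. Timm10b, a small TIM bound to this translocase, fell in both (-0.65 and -0.36), with a same-strand protein-coding gene, Gm45799, that may share its reads. The channel gene Timm22 (0.02 and -0.15, adjusted p = 0.868 and 0.173) and Timm29, a subunit of the complex in animals (-0.01 and 0.13, adjusted p = 0.915 and 0.0928), did not pass. Without quiescent replicate 2, Timm22 passed as higher in quiescent cells (0.18, adjusted p = 0.0413).

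Within TIM23, the receptor gene changed most. Timm50 (ENSMUSG00000003438, chromosome 7, 28004941 to 28011497), which passes the presequence from TOM to TIM23, stood at 57.1, 50.9, 52.6 and 55.1 CPM in quiescent and 129.8, 129.3, 122 and 127 CPM in proliferating libraries. It stood at 38.7, 41.5 and 35.2 CPM in KO and at 57.4, 55.6 and 59.7 CPM in control libraries. Neither pair of groups overlapped. Timm50 fell by 57.6% (-1.24, SE 0.05, adjusted p = 1.27e-11) in quiescent cells and fell by 33.2% (-0.58, SE 0.08, adjusted p = 2.3e-05) in the KO. The fold changes differed by 0.61 (SE 0.10, adjusted p = 7.41e-05), and this too passed under each of the 22 alternatives (0.42 to 0.76). Timm23, the channel, fell in both (-0.37 and -0.49, the latter from 100.1 to 106.5 CPM to 72.3 to 75.6 CPM), and Timm21, which couples TIM23 to the respiratory chain in yeast, passed only in quiescent cells. That call (-0.45, SE 0.18, adjusted p = 0.0416) was lost without any 1 of 7 libraries, all but proliferating replicate 4 (-0.36 to -0.45, adjusted p = 0.0513 to 0.13), and Timm21 was at -0.16 in the KO (adjusted p = 0.144; without KO replicate 3 -0.23, adjusted p = 0.0335).

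The paralogs Timm17a and Timm17b, which shape the channel, moved little. Timm17a stood at 52.2, 52.7, 55.7 and 53.0 CPM in quiescent against 58.3, 61.7, 60.2 and 58.7 CPM in proliferating libraries, without overlap. It fell by 0.16 (SE 0.06, adjusted p = 0.0225), a call lost without any 1 of 5 libraries (each quiescent replicate or proliferating replicate 2, -0.07 to -0.15, adjusted p = 0.0646 to 0.357). Timm17b stood at 61.1, 54.4, 55.0 and 57.8 CPM against 57.9, 55.3, 57.5 and 54.9 CPM (0.02, SE 0.06, adjusted p = 0.831). With GC trends removed Timm17b passed as higher in quiescent cells (0.17, adjusted p = 0.0186). In the KO, Timm17a was at 73.4, 74.5 and 69.9 CPM against 66.3, 73.2 and 71.3 CPM (0.05, SE 0.06, adjusted p = 0.54), and Timm17b at 24.8, 27.6 and 23.2 CPM against 32.5, 26.5 and 27.4 CPM (-0.19, SE 0.10, adjusted p = 0.128). These groups overlapped for both genes.

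In the import motor, 5 of 7 genes fell in quiescent cells and 3 of 7 in the KO. Hspa9 (mtHsp70, the ATPase that pulls proteins in) stood at 108, 132, 116 and 107 CPM in quiescent and 164, 156, 132 and 138 CPM in proliferating libraries, and at 511, 529 and 471 CPM in KO and 617, 577 and 607 CPM in control libraries. It fell by 0.35 (SE 0.08, adjusted p = 0.00261) and 0.25 (SE 0.05, adjusted p = 0.00107), with quiescent replicate 2 and proliferating replicate 4 close to each other. Timm44, its anchor, fell by 0.55 and 0.24, the latter lost without KO replicate 2 (-0.21) or control replicate 3 (-0.17, adjusted p = 0.094 and 0.163). The nucleotide exchange factor Grpel1 stood at 66.9, 64.0, 52.2 and 61.1 CPM against 73.0, 67.8, 68.8 and 68.2 CPM in the quiescence comparison (-0.18, SE 0.07, adjusted p = 0.0352) and at 46.3, 47.3 and 47.5 CPM against 51.2, 55.3 and 52.3 CPM in the KO comparison (-0.17, SE 0.07, adjusted p = 0.044). Its groups did not overlap, but the quiescent call was lost without any 1 of the 8 libraries (adjusted p = 0.051 to 0.507) and the KO call without any 1 of 5, all but KO replicate 3 (adjusted p = 0.0557 to 0.158). Its paralog Grpel2 overlapped in both, with 10.5, 13.6, 12.5 and 10.2 CPM against 14.7, 16.2, 14.4 and 13.1 CPM (-0.32, SE 0.13, adjusted p = 0.0468) and 25.5, 25.8 and 30.4 CPM against 29.3, 31.8 and 28.9 CPM (-0.14, SE 0.09, adjusted p = 0.216). The former was lost without any 1 of 6 libraries (quiescent replicates 1, 3 and 4 and proliferating replicates 1, 2 and 4, adjusted p = 0.0746 to 0.241), and limma on log2(TPM + 1) put it at -0.01 (adjusted p = 0.953; 6.36 against 6.28 TPM). The KO value passed without KO replicate 3 (-0.22, adjusted p = 0.0365).

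Of the J proteins that stimulate mtHsp70, Dnajc19 fell in quiescent cells and Dnajc15 did not pass. Dnajc19 stood at 14.6, 13.6, 12.9 and 16.2 CPM in quiescent and 16.7, 23.5, 17.1 and 22.8 CPM in proliferating libraries (-0.49, SE 0.14, adjusted p = 0.00559; -0.81, SE 0.27, adjusted p = 0.0268 with GC trends removed). Its close paralog Dnajc15 stood at 11.3, 7.59, 7.65 and 7.95 CPM and 8.33, 10.2, 10.31 and 8.84 CPM (-0.13, SE 0.17, adjusted p = 0.507), which overlapped. Pam16, which holds the J protein at the channel, was not called in either (-0.04 and 0.06, adjusted p = 0.751 and 0.676). In the KO, Dnajc15 was at 11.7, 13.8 and 12.2 CPM against 12.2, 11.8 and 11.6 CPM (0.08, SE 0.12, adjusted p = 0.594), and Dnajc19 at 23.5, 24.0 and 24.3 CPM against 25.7, 26.1 and 28.2 CPM. The Dnajc19 groups did not overlap, yet its gene count was not called (-0.16, SE 0.08, adjusted p = 0.138).

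Transcripts of Dnajc19 shifted in the KO beneath that gene count. Of the counts assigned to the gene, a long protein-coding transcript (2499 bases) held 16.9 ± 0.611% in the control (SD, n = 3) and 32.0 ± 3.49% in the KO. A short protein-coding transcript (659 bases) held 79.8 ± 0.979% and 63.7 ± 1.84%. Neither overlapped, and an exact two-sided permutation test of 3 against 3 cannot go below p = 0.1. On the length-normalised scale, where limma was run on log2(TPM + 1), Dnajc19 fell in the KO by 0.40 (adjusted p = 0.00224). Tomm20 showed a shift in the other experiment, its short protein-coding transcript (458 bases) holding 14.3 ± 0.268% in proliferating and 9.85 ± 0.808% in quiescent cells, again without overlap.

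Of the presequence proteases, 1 of 3 fell in each comparison. This share too (33.3%) was near those over all genes, 35.5% in quiescent cells and 26.2% in the KO. Pmpca, the non-catalytic subunit of the processing peptidase, stood at 154, 141, 156 and 148 CPM in quiescent and 174, 171, 165 and 181 CPM in proliferating libraries (-0.21, SE 0.05, adjusted p = 0.00163), without overlap. That call was lost without quiescent replicate 2 (-0.09, adjusted p = 0.0943) or 4 (-0.14, adjusted p = 0.11). The catalytic subunit gene Pmpcb stood at 78.7, 84.6, 87.4 and 92.9 CPM against 84.6, 95.1, 88.5 and 98.9 CPM (-0.09, SE 0.07, adjusted p = 0.217). In the KO both overlapped their controls, Pmpca with 157, 159 and 156 CPM against 165, 158 and 162 CPM (-0.04, SE 0.05, adjusted p = 0.474) and Pmpcb with 94.6, 95.7 and 94.3 CPM against 92.9, 102.5 and 93.5 CPM (-0.02, SE 0.06, adjusted p = 0.775). Mipep, which trims an octapeptide after the first cut, fell in the KO from 22.0 to 23.9 CPM to 15.9 to 18.4 CPM (-0.41, SE 0.10, adjusted p = 0.00276). It was at -0.11 (adjusted p = 0.329) in quiescent cells.

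All 3 matrix folding chaperone genes fell in the KO, Hspd1 by the most of all members. Hspd1 (Hsp60; ENSMUSG00000025980, chromosome 1, 55116994 to 55127402) stood at 414, 424 and 337 CPM in KO and at 687, 647 and 662 CPM in control libraries. Hspe1 (Hsp10, its lid; ENSMUSG00000073676, chromosome 1, 55127291 to 55130466) stood at 80.5, 82.3 and 65.5 CPM in KO and at 119, 108 and 119.9 CPM in control libraries. Neither overlapped. Hspd1 fell by 41.1% (-0.76, SE 0.07, adjusted p = 9.52e-06) and Hspe1 fell by 34.2% (-0.60, SE 0.08, adjusted p = 4.04e-05), and KO replicate 3 was lowest for each. The genes are transcribed away from each other, and RefSeq starts of Hspd1 lay 216 bases upstream of the Hspe1 start and 95 bases downstream of it, so that the Hspe1 window printed above covers ground they share. Trap1, the mitochondrial Hsp90, stood at 96.9, 102 and 86.0 CPM in KO and 109, 104 and 113 CPM in control libraries. It fell without overlap (-0.20, SE 0.06, adjusted p = 0.0198; without control replicate 1 -0.20, adjusted p = 0.064, and without control replicate 3 -0.17, adjusted p = 0.0937).

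In quiescent cells Hspe1 stood at 70.6, 65.4, 71.3 and 78.7 CPM against 102.5, 129.8, 114 and 117 CPM in proliferating cells. Trap1 stood at 123, 113, 133 and 123 CPM against 169.9, 176, 171 and 172 CPM. Both fell without overlap (-0.70, SE 0.07, adjusted p = 6.39e-07, and -0.49, SE 0.05, adjusted p = 4.73e-07). Hspd1, with 52.1, 80.9, 56.8 and 53.2 CPM against 91.6, 83.6, 78.8 and 65.5 CPM, overlapped through quiescent replicate 2 and was not called (-0.39, SE 0.16, adjusted p = 0.0713). Without quiescent replicate 2 Hspd1 fell by 0.48 (adjusted p = 0.000567), and without proliferating replicate 5 by 0.47 (adjusted p = 0.0291). With all libraries kept, Hspd1 was called lower by DESeq2 (-0.34, adjusted p = 0.0121) and in 1 joint fit of all 14 libraries (-0.37, adjusted p = 0.0379). A replicate block (-0.47, adjusted p = 0.0478) and library size alone (-0.52, adjusted p = 0.0282) also called it. The remaining settings that kept all libraries did not. Pseudogenes named after Hspd1 and Hspe1 are annotated, and reads could be split among them.

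Ratios within a library do not depend on how libraries are scaled and were compared for 9 pairs of paralogs or partners in each experiment. Timm8a1 relative to Timm8b differed between quiescent and proliferating cells by -1.38 on the log2 scale (-2.62 ± 0.315 against -1.24 ± 0.278, n = 4 and 4), and Tomm40 relative to Tomm40l by -0.51 (0.84 ± 0.0555 against 1.35 ± 0.143). In both pairs the groups did not overlap, which gave the smallest p of the exact two-sided permutation test (0.0286) and 0.129 after Benjamini-Hochberg adjustment over the 9 pairs. In the KO the same ratios differed by -0.45 and -0.39, again without overlap, where an exact test of 3 against 3 cannot go below 0.1 (adjusted 0.225). Taken from TPM, the quiescent difference was -1.39 for Timm8a1 to Timm8b and -0.37 for Tomm40 to Tomm40l (exact p = 0.0286 for each). The KO difference from TPM was -0.45 (exact p = 0.1) for Timm8a1 to Timm8b and -0.31 (exact p = 0.3) for Tomm40 to Tomm40l. Dnajc15 to Dnajc19 differed in the KO by 0.23 without overlap (exact p = 0.1), but by -0.06 from TPM (exact p = 0.8). Timm9 to Timm10 differed by 0.30 in quiescent cells (exact p = 0.229) and 0.22 in the KO (exact p = 0.5), and Hspd1 to Hspe1 by 0.28 (exact p = 0.343) and -0.16 (exact p = 0.1, without overlap). Timm17a to Timm17b differed by -0.18 in quiescent cells (exact p = 0.0571) and by 0.24 in the KO (exact p = 0.2). Grpel1 to Grpel2 differed by 0.14 (exact p = 0.457) and -0.03. The groups overlapped for these pairs in both experiments. Mtx1 to Mtx2 and Pmpca to Pmpcb also overlapped in both, with differences from -0.11 to 0.00 in quiescent cells and -0.07 and -0.02 in the KO. No pair passed after adjustment. In the KO none could, and in quiescent cells even the smallest possible p became 0.129. The adjusted values therefore cannot decide whether a ratio changed.

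Side by side, 19 members fell in both comparisons, 11 passed only in quiescent cells, 3 (Tomm70a, Mipep and Hspd1) only in the KO and 7 in neither (Timm8b, Timm22, Timm29, Timm17b, Dnajc15, Pam16 and Pmpcb). The share of all genes lower in both was not computed, so no excess is read from these counts. Hspd1 also passed in quiescent cells under the alternatives given above. A test of the difference between the fold changes (KO minus quiescence, all 14 libraries) gave 5 members higher and 1 lower of 40, where 21.0% of all 13580 genes were higher and 18.0% lower (38.9% either way). Those higher, that is with a smaller fall in the KO, were Timm50, Gfer, Samm50 (0.29, SE 0.09, adjusted p = 0.0141), Timm8a1 (0.59, SE 0.21, adjusted p = 0.0287) and Tomm20, and the one lower was Timm8b (-0.32, SE 0.12, adjusted p = 0.033). Timm50 and Gfer passed under each of the 22 alternatives run for the difference and the other 4 did not. Samm50 was lost with RLE scaling, DESeq2 and GC trends removed (0.18 in each, adjusted p = 0.0589 to 0.12). Timm8a1 was lost with RLE scaling, DESeq2, limma and without any 1 of 6 libraries, quiescent replicates 1 and 4, proliferating replicate 5, KO replicate 2 and control replicates 2 and 3 (0.45 to 0.58, adjusted p = 0.0546 to 0.101). Timm8b was lost with library size alone (-0.17, adjusted p = 0.25) and without any 1 of 6, quiescent replicate 4, proliferating replicates 1 and 5, KO replicate 1 and control replicates 1 and 3 (adjusted p = 0.0596 to 0.0943). Of the 3 members called only in the KO, Hspd1 (-0.42, SE 0.20, adjusted p = 0.12), Tomm70a (-0.31, SE 0.22, adjusted p = 0.285) and Mipep (-0.34, SE 0.15, adjusted p = 0.0845) did not pass this test.

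**Figure D3:**
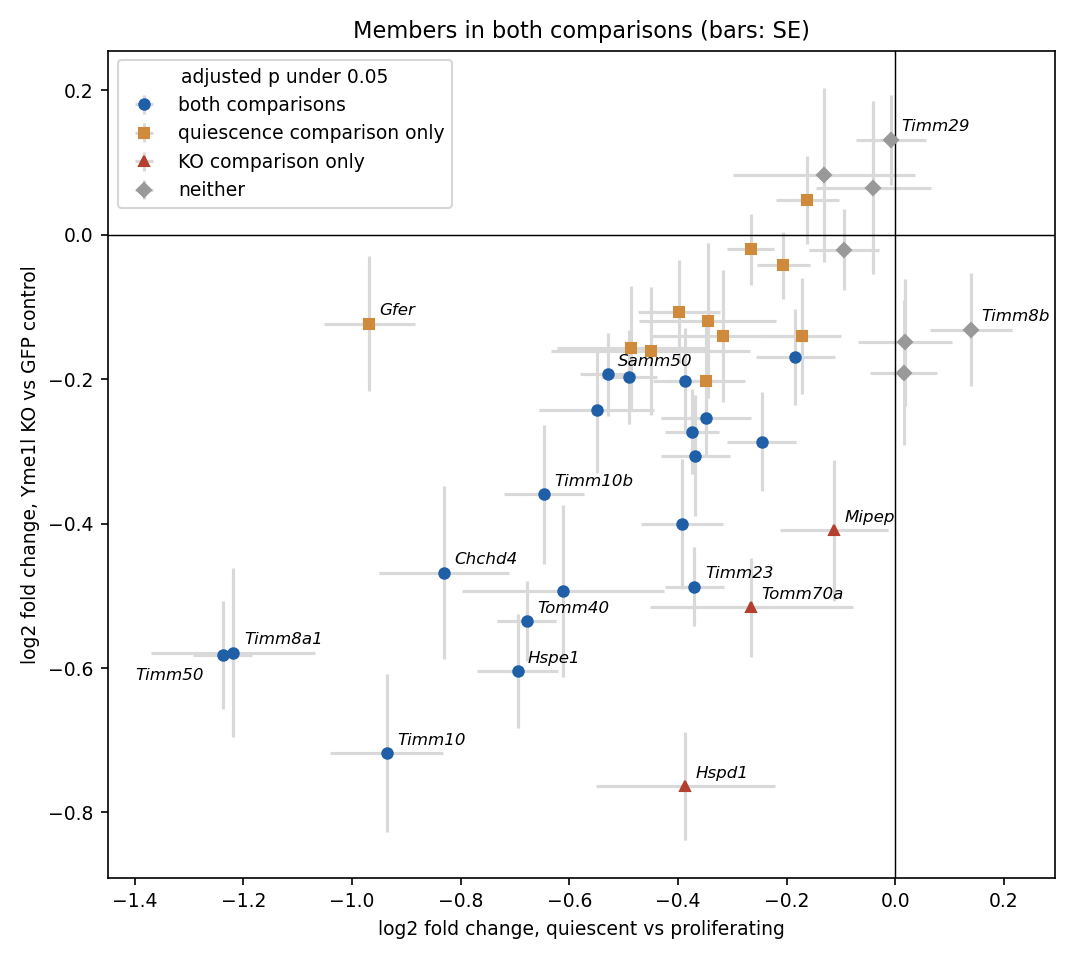
Log2 fold change of the 40 tested members in quiescent against proliferating cells (x axis) and in Yme1l KO against GFP control (y axis), with SE bars; symbols give the comparisons in which a member passed. Of the points, 33 lie below 0 on both axes, with Timm50 and Timm8a1 farthest left and Hspd1 lowest. The matching share of all genes was not computed.

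Compared per length, the order of levels differed between genes. In proliferating cells Hspe1 (324 ± 28.9 TPM), Tomm6 (317 ± 17.6 TPM) and Timm13 (304 ± 11.1 TPM) were highest and lay within their spread of each other. Grpel2 (6.28 ± 0.533 TPM) and Tomm70a (6.19 ± 0.483 TPM) were lowest of the 40 tested members. In the control of the KO experiment Hspd1 (540.3 ± 16.8 TPM) was highest, followed by Hspa9 (369 ± 10.7 TPM) and Hspe1 (348 ± 18.8 TPM). Chchd4 (12.1 ± 1.77 TPM) and Grpel2 (13.7 ± 0.766 TPM) were lowest there of those tested. The log2 ratio of control to proliferating TPM correlated with transcript GC content over the 40 members (rho = -0.77). The part of GC content in either order was not tested.

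Other gene groups of mitochondria give the setting. Of 78 mitochondrial ribosomal protein genes, 61 fell and 2 rose in quiescent cells (median -0.39) and 42 fell and 0 rose in the KO (median -0.24), shares of 78.2% and 53.9% lower beside 75.0% and 55.0% for the members. Nuclear genes of the respiratory chain were taken by symbol, which also brought in ATP synthase genes and assembly factors. Of these, 24 of 92 fell and 17 rose in quiescent cells (median -0.03). In the KO 6 of 94 fell and 21 rose (median 0.04).

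**Figure D4:**
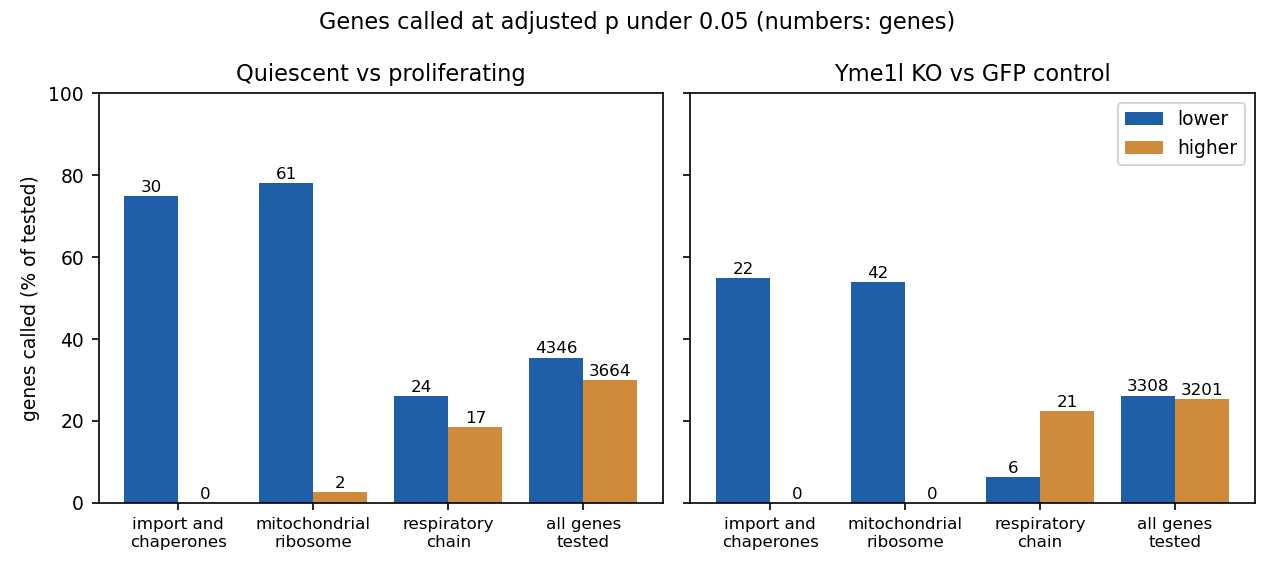
Share of tested genes (y axis, percent) called lower or higher among the import and chaperone genes, the mitochondrial ribosomal proteins, the nuclear respiratory chain genes and all genes, in both comparisons, with the number of genes above each bar. The import genes and the mitochondrial ribosome have the tallest bars for lower in both panels.

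Genes that act next to the machinery were read from listed groups, beside shares over all genes of 35.5% lower and 29.9% higher in quiescent cells and 26.2% and 25.4% in the KO. The 8 cytosolic chaperones that carry precursors to TOM fell in 7 cases (87.5%) in the KO, led by the Hsp70-Hsp90 linker Stip1 (-0.70, SE 0.06) and Hsp90aa1 (-0.51, SE 0.06), and in 3 cases (37.5%, near the share over all genes) in quiescent cells, again with Stip1 first (-0.97, SE 0.05). Import, insertion and processing factors outside the naming rule were 4 lower and 1 higher of 12 in quiescent cells and 3 lower and 1 higher in the KO, where Pitrm1, which degrades cleaved presequences, fell by 0.55 (SE 0.08) and Dnlz, a partner of mtHsp70, rose by 0.34 (SE 0.06). Their shares lower, 33.3% and 25.0%, were near those over all genes. Of 9 matrix and inner membrane proteases, 4 (44.4%) fell and 3 rose in quiescent cells, and 5 (55.6%) fell in the KO including the targeted gene. The 7 genes of the MICOS complex and its bridge to SAM were 3 (42.9%) lower in quiescent cells and 4 (57.1%) in the KO, and 0 higher.

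Among 13 transcription factors and coactivators named as regulators of such genes, 7 (53.9%) fell and 1 rose in quiescent cells and 5 (38.5%) fell and 3 rose in the KO, beside 35.5% and 29.9%, and 26.2% and 25.4%, over all genes. In quiescent cells Myc fell by 2.69 (SE 0.08), the coactivator Ppargc1b by 1.92 (SE 0.35) and Pprc1 by 1.20 (SE 0.06), and Ppargc1a rose by 2.13 (SE 0.30). In the KO Pprc1 fell by 0.69 (SE 0.10) and Atf4 by 0.43 (SE 0.05), and Ppargc1a (0.70, SE 0.07) and Esrra (0.57, SE 0.07) rose. No link from these levels to the members was tested.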

How the data were processed

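The authors deposited salmon estimated counts per gene for each experiment separately, from stranded poly-A libraries per the labels' protocols, and TPM values. They also deposited log2 fold changes and p-values from DESeq2 1.30.1 in R 4.0.3 on GRCm39, per the submitters' processing notes; the authors' deposited table lists 27 of 40 members as lower in quiescent cells, 17 in the KO and 0 as higher. Here the deposited counts were rounded and tested in edgeR 4.0.16 (R 4.3.3; TMM, filterByExpr by group, robust quasi-likelihood F test), with Benjamini-Hochberg adjustment over all genes. Unless another tool is named, adjusted p-values are these. SE is the fold change over the root of F. Transcript GC content and lengths came from GENCODE vM21, promoters from RefSeq (GRCm38.p6). The test was run on simulated data with known changes first.

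Every member could be named; library values were given for the 6 called members with the largest fold change per comparison, paralog or partner pairs and chaperones. Members and lists were chosen with earlier results of these data known. The ratio of pairs was added after the data were seen. No label pairs replicates. Alternatives were RLE scaling, library size alone, DESeq2 1.42.0, limma 3.58.1 on log2(TPM + 1), length-scaled counts, other filters, 1 joint fit, a replicate block, leaving out each library and removing GC trends (for the difference of the fold changes, no joint-fit or block alternative).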

Additional observations from a re-analysis of the deposited data

Results flagged for a closer look

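With 4 libraries per group, a library was flagged when its gap to the nearest of the others exceeded Dixon's critical share of the group's range, which chance does in about 1 of 20 groups; 5 of 80 groups were flagged. Tomm70a stood at 26.5 CPM and Hspd1 at 80.9 CPM in quiescent replicate 2, above 13.6 to 15.8 CPM and 52.1 to 56.8 CPM in the other quiescent libraries. Dnajc15 stood at 11.3 CPM in quiescent replicate 1, above 7.59 to 7.95 CPM. Tomm40 stood at 159 CPM in proliferating replicate 1, below 177 to 179 CPM, and Tomm5 at 63.3 CPM in proliferating replicate 2, above 59.1 to 59.7 CPM.

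Across the 40 members, the log2 ratio of quiescent replicate 2 to the other quiescent libraries had r = -0.49 and rho = -0.48 with transcript GC content, and r = -0.57 across 11454 genes; genes of 1 library share its preparation and are not independent replicates. With each library's GC trend removed, the quiescent fold change of Hspd1 was -0.35 (SE 0.14, adjusted p = 0.0524) and that of Tomm70a -0.69 (SE 0.17, adjusted p = 0.00337).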

How the results depend on the processing

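In quiescent cells 20 of 30 called members passed under every alternative, and in the KO 15 of 22; no called member changed sign. Counts of lower members were 22 to 28 (quiescent) and 18 to 25 (KO) when 1 library was left out, 25 and 22 with RLE scaling, 33 and 23 with library size alone, which moved the median of all genes in the quiescence comparison from -0.0141 to -0.151, 25 and 19 with DESeq2, 27 and 17 with limma, and 29 and 22 with GC trends removed, an alternative chosen after seeing the data. Counts of higher members in quiescent cells went from 0 to 1 with RLE scaling, to 2 with GC trends removed and to between 0 and 2 with 1 library left out, and stayed at 0 in the KO. For the difference between the fold changes, 5 higher and 1 lower became 2 and 4 with RLE scaling and 15 and 0 with library size alone, 2 and 5 with DESeq2, 6 and 1 with limma, 8 and 3 with GC trends removed (these 3 chosen after seeing the data), and 3 to 5 and 0 to 3 with 1 library left out; the cause was not tested.

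Same-numbered libraries did not deviate together (correlations -0.33 to -0.00828 in quiescence, -0.0582 to 0.000377 in the KO experiment). These deviations are from each group's own mean over few libraries, so the check cannot show that samples are unpaired. With a replicate block 25 members fell in quiescent cells and 21 in the KO, and 0 rose. The calls not made were those of Tomm40l, Timm17a, Timm21, Dnajc19 (-0.36, adjusted p = 0.11), Grpel1 and Grpel2 in quiescent cells and of Grpel1 in the KO. The call gained was that of Hspd1 in quiescent cells (-0.47, adjusted p = 0.0478). No block was run for the difference between the fold changes.

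With GC trends removed, the quiescent fold change of Tomm34 (-0.25), Mtx1 (-0.20) and Timm13 (-0.19) was smaller and that of Mtx2 (-0.58), Timm17a (-0.32), Timm21 (-0.75), Dnajc19 (-0.81) and Hspa9 (-0.55) larger by over 1.5 times, and each was still called. DESeq2 did not call Tomm40l, Mtx2, Timm17a, Timm21, Grpel1 and Grpel2 in quiescent cells or Tomm34, Grpel1 and Timm44 in the KO. It did call Hspd1 lower in quiescent cells (-0.34, adjusted p = 0.0121). Limma on log2(TPM + 1) did not call Mtx2, Grpel1 and Grpel2 in quiescent cells. In the KO limma did not call Tomm34, Timm13, Timm10b, Grpel1, Timm44 and Trap1. It put the quiescent fold change of Tomm20 at -0.60.

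In the quiescence comparison the SE was 0.19 for Timm9 (7.35 CPM in quiescent cells), 0.10 for Timm10 (15.9 CPM), 0.05 for Timm50 (53.9 CPM) and 0.16 for Hspd1 (60.7 CPM).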

Other observations

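The proliferating and GFP control cells had the same growth factors but were quantified in separate tables, so their levels are set side by side as a description. Hspd1 stood at 62.7 TPM in proliferating and 540.3 TPM in control cells (8.62-fold), Tomm70a at 6.19 and 63.3 TPM (10.2-fold), Hspa9 at 85.8 and 369 TPM (4.30-fold) and Timm21 at 18.3 and 61.3 TPM (3.36-fold), while Timm50 stood at 165 and 79.5 TPM and Gfer at 74.3 and 37.6 TPM. Hspd1 relative to Hspe1, as a log2 ratio of CPM within a library, was -0.54 ± 0.282 (SD, n = 4) in proliferating and 2.52 ± 0.0568 (SD, n = 3) in control cells. The log2 ratio of control to proliferating TPM had r = -0.64 and rho = -0.77 with transcript GC content over the 40 members, and r = -0.71 over 11454 genes, whose points share the same libraries. No difference in level between the experiments is drawn from these values.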
